A study of Homo sapiens with 12 samples.

Results

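The genes described here are 8 mucin and secretory lineage genes, MUCL1, MUC1, MUC2, MUC13, TFF3, AGR2, SPDEF and ATOH1, chosen by name among the 33331 genes with a row in at least 1 of the study's tables. Of the 8 genes, 7 have a row in at least 1 table, 6 in the knockout table and 7 in the inhibitor table. TFF3 has a row in the inhibitor table only, and ATOH1 has a row in neither, so their values there were not analysed here. RNA-seq read counts came from SW480, a human colorectal adenocarcinoma cell line, in 4 groups of 3 biological replicates. The knockout comparison used a single ALDH1B1 knockout clone of SW480 that expressed either EGFP, the control protein, or ALDH1B1, a mitochondrial aldehyde dehydrogenase. The inhibitor comparison used the parental line, which keeps its own ALDH1B1 gene, after 24 hours with DMSO, the solvent, or with an ALDH1B1-selective inhibitor at 2 µM. No named compound, promoter of the constructs or second clone is given in the labels, and both arms of the knockout comparison carry the knockout.

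Mucins are heavily O-glycosylated proteins of epithelial surfaces. Gel-forming mucins such as MUC2 are secreted by goblet cells and build the mucus layer of the intestine, while membrane mucins such as MUC1 and MUC13 stay on the apical cell surface. In the intestinal crypt, Notch signalling holds down the transcription factor ATOH1, which is needed for the secretory lineages, and SPDEF acts after it in the maturation of goblet cells. TFF3, a trefoil peptide, is secreted together with MUC2, and AGR2 is a protein disulfide isomerase of the endoplasmic reticulum that assists mucin folding. MUCL1, also called small breast epithelial mucin, is a small mucin-like secreted protein best known from breast epithelium.

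The genes lie on different chromosomes of the hg38 build, at the spans that the tables share with GENCODE release 29. All are annotated as protein coding. MUCL1 (ENSG00000172551) spans chr12:54830519-54858393 on the plus strand, and MUC2 (ENSG00000198788) spans chr11:1074875-1110511 on the plus strand. MUC1 (ENSG00000185499) spans chr1:155185824-155192916, MUC13 (ENSG00000173702) chr3:124905442-124953819 and TFF3 (ENSG00000160180) chr21:42311667-42315651, all on the minus strand. AGR2 (ENSG00000106541) spans chr7:16791811-16833433 and SPDEF (ENSG00000124664) chr6:34537802-34556333, both on the minus strand. Whether strand was used in the counting is not stated. No exon base of these genes is shared with another annotated gene, except in MUC1, where 1.02% is shared with AL713999.1 on the same strand.

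The 12 libraries held between 32617089 and 39018926 counted reads. As a check of the labels, ALDH1B1 stood at 101 ± 3.20 CPM, that is read counts scaled to a common library size, in the clone with ALDH1B1, at 18.4 ± 0.437 CPM in the clone with EGFP and at 49.5 ± 3.83 CPM in the parental line with DMSO (SD, n = 3 each, the 12 libraries scaled jointly). The inhibitor did not shift it beyond the spread between libraries (log2 fold change 0.01, SE 0.06, edgeR adjusted p = 0.936). EGFP replicate 3 and DMSO replicate 2 differed most from the other libraries of their groups. Values without each of them are part of the ranges given for the changes below.

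Read numbers separated 3 kinds of members, as the plot of reads per library shows. MUCL1 and, in the parental line, MUC13 and TFF3 had at least 559 reads in each library. MUC1 had 82 to 120 reads in each of the 12 libraries. MUC2 had 22 to 27 reads per library with DMSO, and fewer in the other groups. SPDEF never passed 8 reads and AGR2 never passed 5, and each was at 0 in at least 3 libraries, so their changes were not detectable at this depth. For orientation, 3 reads, the limit that a count of 0 allows, came to between 0.0769 and 0.092 CPM. Such limits and the count intervals below cover counting error only.

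**Figure D1:**
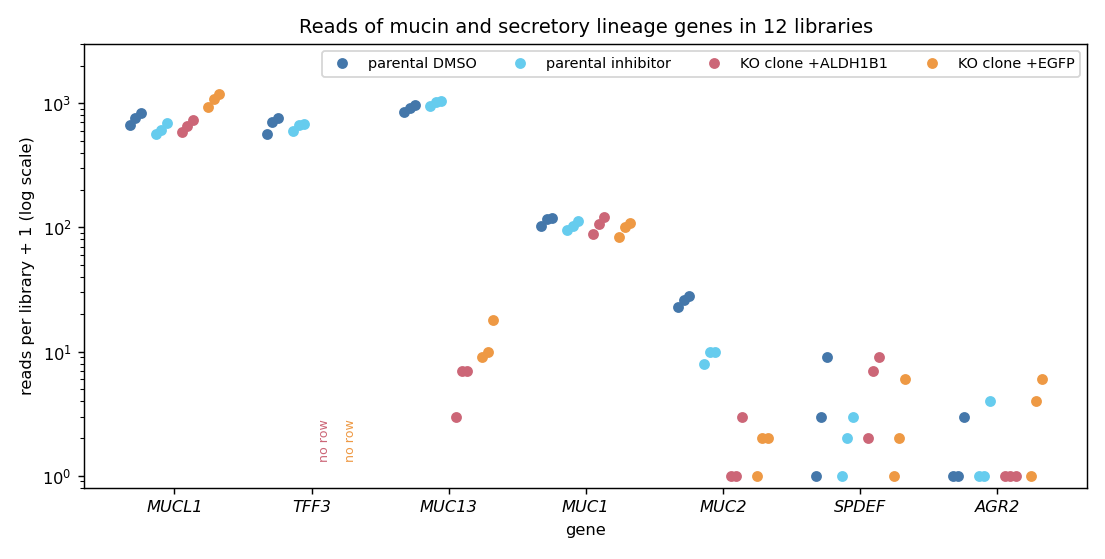
Reads per library plus 1, on a log scale, for the 7 members with a row, with 1 point for each library and 1 colour for each of the 4 groups. MUC13 lies between 849 and 1041 reads in the parental libraries and between 2 and 17 reads in the clone, MUC1 stays between 82 and 120, and TFF3 has no row in the clone's table.

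Levels of different genes were compared per length, as the FPKM values that the authors deposited, which are scaled to transcript length and library size. In the parental line with DMSO the order was MUCL1 at 16.5 ± 0.525 FPKM, TFF3 at 15.8 ± 0.944, MUC13 at 7.18 ± 0.319, MUC1 at 0.651 ± 0.025 and MUC2 at 0.0535 ± 0.00289 (SD, n = 3 each). The levels of MUCL1 and TFF3 overlapped between libraries, and no other neighbours among these 5 genes did. With the inhibitor, FPKM values were taken from replicates 1 and 3, where TFF3 stood at 15.8 ± 0.757 FPKM and MUCL1 at 12.9 ± 0.209 FPKM (SD, n = 2 each). From the reads of all 3 inhibitor libraries, scaled by length and library total, TFF3 stood at 15.2 ± 1.67 and MUCL1 at 13.6 ± 0.834 (SD, n = 3 each). MUC13 at 7.71 ± 0.0978 FPKM, MUC1 at 0.62 ± 0.0871 FPKM and MUC2 at 0.0174 ± 0.00423 FPKM (SD, n = 2 each) followed in the same order as with DMSO. In the clone with ALDH1B1, MUCL1 led at 14.6 ± 1.05 FPKM, MUC1 followed at 0.618 ± 0.145 FPKM, and MUC13 stood at 0.0379 ± 0.0202 FPKM (SD, n = 3 each). In the clone with EGFP the values were 23.8 ± 2.67 FPKM for MUCL1, 0.572 ± 0.0666 FPKM for MUC1 and 0.0917 ± 0.044 FPKM for MUC13 (SD, n = 3 each). The authors scaled the knockout and inhibitor tables separately, so FPKM values were ordered only within a group.

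The start regions of MUCL1, MUC2 and MUC13 are shown because MUCL1 is the member that changed in both comparisons, and MUC2 and MUC13 are those whose levels lay farthest apart between the clone and the parental line. Each holds 300 bases, 250 before to 50 after the start site in RefSeq on GRCh38.p14, read 5′ to 3′ on the strand of the gene. They lie at chr12:54854266-54854565 (plus), chr11:1074624-1074923 (plus) and chr3:124934702-124935001 (minus). The RefSeq starts of MUCL1 and MUC13 lie inside their GENCODE spans, and the counts do not say which start was used. Capitals mark matches to short letter strings known from the binding motifs of intestinal transcription factors, which were chosen after values of these data had been seen.
MUCL1: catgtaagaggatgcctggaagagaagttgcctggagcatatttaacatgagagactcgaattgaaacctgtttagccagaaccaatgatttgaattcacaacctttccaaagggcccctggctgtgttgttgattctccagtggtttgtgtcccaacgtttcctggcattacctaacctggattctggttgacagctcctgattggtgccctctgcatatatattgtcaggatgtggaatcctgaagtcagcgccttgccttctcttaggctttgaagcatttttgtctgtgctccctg
MUC2: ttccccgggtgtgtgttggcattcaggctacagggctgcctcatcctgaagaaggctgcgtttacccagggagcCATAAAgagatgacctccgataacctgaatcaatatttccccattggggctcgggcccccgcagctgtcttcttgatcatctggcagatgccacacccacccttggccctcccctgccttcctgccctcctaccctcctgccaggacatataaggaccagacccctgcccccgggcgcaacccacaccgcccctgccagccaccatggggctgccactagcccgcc
MUC13: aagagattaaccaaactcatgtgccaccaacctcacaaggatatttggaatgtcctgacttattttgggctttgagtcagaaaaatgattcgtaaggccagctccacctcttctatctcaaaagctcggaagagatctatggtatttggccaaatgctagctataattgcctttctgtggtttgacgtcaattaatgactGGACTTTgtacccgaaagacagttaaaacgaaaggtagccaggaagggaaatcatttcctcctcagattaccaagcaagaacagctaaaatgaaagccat
The strings searched on both strands were AAAGTCC for HNF4, TGTTTAC for FOXA, TTTATG for CDX, AGATAA for GATA and TATAAA for the TATA box. The reverse complement of the TATA letters differs from the CDX letters in its last base only, so matches of these strings can lie on overlapping bases in other promoters. In MUC13, the reverse complement of the HNF4 letters begins at base -50 from the start site. In MUC2, the reverse complement of the CDX letters begins at base -176 from the start site. MUCL1 had no match to any of the 5 strings, which says only that these letters are not in this window. Over all 35116 RefSeq promoters of this length, 3.71% held the HNF4 letters, 3.42% the FOXA letters, 10.6% the CDX letters, 10.3% the GATA letters and 11.5% the TATA letters. A match is a description of the sequence and was not tied to binding here.

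The knockout comparison asked which of these genes differed in the clone without re-expressed ALDH1B1. MUCL1 rose and no other member was called. The clone with ALDH1B1 had 585, 660 and 728 MUCL1 reads, and the clone with EGFP had 1076, 927 and 1196. Every EGFP library lay above every ALDH1B1 library. On the CPM scale MUCL1 stood at 18.4 ± 1.33 with ALDH1B1 and at 30.0 ± 3.26 with EGFP (SD, n = 3 each). It was 1.63-fold higher with EGFP (log2 fold change 0.71, SE 0.08, 95% interval 0.53 to 0.88, edgeR adjusted p = 6.8e-05). Over the 11 alternative settings, each library left out in turn included, the MUCL1 change stayed between 0.62 and 0.77 with edgeR or DESeq2 adjusted p at most 0.00126. MUCL1 was the 1 called member of the 2 that could be tested, beside 17.6% of the 17404 genes tested in this comparison (8.36% higher and 9.22% lower). Its groups did not overlap, as was the case for 35.2% of all genes tested.

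MUC1, a membrane mucin whose cytoplasmic tail takes part in signalling, had 120, 105 and 87 reads with ALDH1B1 and 100, 82 and 108 with EGFP. The groups overlapped. The log2 fold change was -0.10 (SE 0.19, 95% interval -0.50 to 0.30, edgeR adjusted p = 0.756), an interval that leaves room for changes of either sign.

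The other members with a row fell under the filter on low counts in the clone. MUC13 had 6, 2 and 6 reads with ALDH1B1 and 9, 17 and 8 with EGFP, so its groups did not overlap at these low numbers. Without the filter its log2 fold change was 1.25 (SE 0.65, edgeR adjusted p = 0.254), and in 1 fit over all 12 libraries it was 1.26 (SE 0.43, edgeR adjusted p = 0.0496). The call thus depended on the fit, where MUC13 passed the low-count filter only through its parental reads. This call adds no support for a change within the clone. MUC2 had 0, 2 and 0 reads with ALDH1B1 and 1, 0 and 1 with EGFP, all within the limit that a count of 0 allows. AGR2 had no read in the 3 ALDH1B1 libraries and 5, 3 and 0 with EGFP, and SPDEF had 6, 8 and 1 against 5, 1 and 0.

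The inhibitor comparison asked the same of the parental line. MUCL1 and MUC2 fell, by 1.24-fold and 3.01-fold, and MUC1, MUC13 and TFF3 were not called. These 2 calls among 5 tested members stand beside 3.99% of the 17848 genes tested (1.89% higher and 2.1% lower). MUCL1 had 757, 665 and 832 reads with DMSO and 610, 696 and 567 with the inhibitor. Scaled to library size the groups did not overlap, as for 24.2% of all genes tested, with 21.0 ± 0.632 CPM with DMSO and 16.9 ± 1.11 CPM with the inhibitor (SD, n = 3 each). The log2 fold change of MUCL1 was -0.31 (SE 0.08, 95% interval -0.47 to -0.14, edgeR adjusted p = 0.0378). In the authors' deposited table the adjusted p of MUCL1 is 0.0248. The call was lost on leaving out DMSO replicate 2 (-0.32, edgeR adjusted p = 0.0566), DMSO replicate 3 (-0.28, 0.183), inhibitor replicate 1 (-0.28, 0.0837) or inhibitor replicate 3 (-0.29, 0.154).

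MUC2, the main gel-forming mucin of the colon, had 27, 22 and 25 reads with DMSO and 7, 9 and 9 with the inhibitor. The groups did not overlap. Summed over libraries, 74 reads against 25 gave a ratio of 3.01 (exact binomial 95% interval 1.89 to 4.94). In CPM the level was 0.69 ± 0.0402 with DMSO and 0.227 ± 0.038 with the inhibitor (SD, n = 3 each), both low. The log2 fold change was -1.59 (SE 0.38, 95% interval -2.40 to -0.78, edgeR adjusted p = 0.0299). Leaving out any 1 of the 6 libraries ended the call, with MUC2 log2 fold changes between -1.69 and -1.47 and edgeR adjusted p from 0.0653 to 0.112. The authors' deposited table gives MUC2 a p-value of 0.00348 and an adjusted p of 1, which can stand for a missing value. DESeq2 run here gave MUC2 the same p-value and no adjusted p.

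MUC13, a membrane mucin of the intestinal surface, had 917, 849 and 972 reads with DMSO and 1025, 1041 and 948 with the inhibitor. After scaling, 25.5 ± 0.805 CPM with DMSO and 27.3 ± 0.116 CPM with the inhibitor (SD, n = 3 each) did not overlap. The log2 fold change of 0.10 (SE 0.06, 95% interval -0.04 to 0.23) was not called (edgeR adjusted p = 0.446). TFF3 had 700, 559 and 765 reads with DMSO and 683, 598 and 664 with the inhibitor. Its groups overlapped, and the log2 fold change was -0.09 (SE 0.09, 95% interval -0.28 to 0.10, edgeR adjusted p = 0.634). MUC1 had 118, 102 and 115 reads with DMSO and 101, 95 and 112 with the inhibitor, again overlapping in CPM, with a log2 fold change of -0.16 (SE 0.17, 95% interval -0.51 to 0.19, edgeR adjusted p = 0.652). AGR2 had 2, 0 and 0 reads with DMSO and 0, 3 and 0 with the inhibitor, and SPDEF had 0, 2 and 8 against 0, 2 and 1, so neither was tested.

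**Figure D2:**
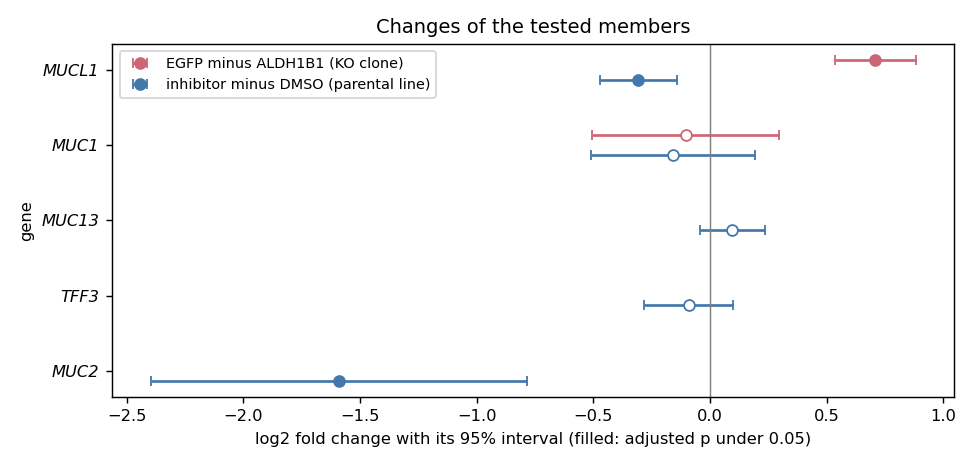
Log2 fold changes of the tested members with 95% intervals, for EGFP minus ALDH1B1 in the clone and for inhibitor minus DMSO in the parental line, with filled points for an adjusted p under 0.05. MUCL1 lies at 0.71 in the first and at -0.31 in the second, and MUC2 lies at -1.59 with the widest interval, -2.40 to -0.78.

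The changes of MUCL1 in the 2 comparisons had opposite signs, and the difference itself was tested over all 12 libraries. The knockout effect on MUCL1 exceeded the inhibitor effect by 0.99 on the log2 scale (SE 0.12, 95% interval 0.75 to 1.24, edgeR adjusted p = 5.0e-05). The difference for MUCL1 held in all 16 alternatives, between 0.91 and 1.09. For this test 5.11% of 19075 genes were called, 1.9% with the knockout effect above the inhibitor effect and 3.2% with it below. The differences of the other tested members were not called: 1.15 for MUC13 (SE 0.44, edgeR adjusted p = 0.132), 1.58 for MUC2 (SE 1.61, edgeR adjusted p = 0.648) and 0.03 for MUC1 (SE 0.26, edgeR adjusted p = 0.968). MUC13 and MUC2 passed the low-count filter for this test only through their parental reads. The 2 comparisons differ in line, in the length of ALDH1B1 loss and in how it was brought about, which cannot be told apart.

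**Figure D3:**
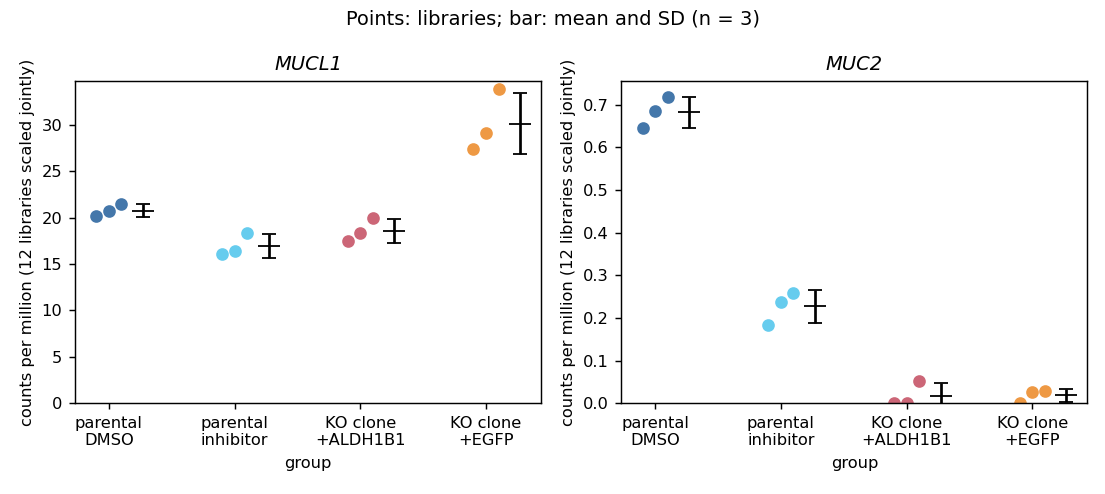
CPM of MUCL1 (left) and MUC2 (right) in the 4 groups, with 1 point for each of 3 libraries and the mean with SD beside them, on axes that start at 0. MUCL1 is highest in the clone with EGFP and lowest in the parental line with inhibitor, while MUC2 lies at 0.682 CPM with DMSO and at most at 0.0528 CPM in any library of the clone.

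The clone and the parental line were then set side by side, from counts scaled jointly over the genes in both tables. Sums of gene lists further below are an exception. They were scaled within the knockout and the inhibitor libraries separately, and took the list genes with a row in each table. Clone against line is not a comparison of the study's design, since the clone differs from the line by its knockout, its cloning, its construct and any batch, which cannot be told apart. The background is correspondingly high. Of 19075 genes, 75.3% were called for the clone with ALDH1B1 against parental DMSO (38% higher and 37.4% lower), and 75.5% for the clone with EGFP (37.8% higher and 37.7% lower). Members called numbered 2 of 4 and 3 of 4, and shares of this size say nothing particular about the members. Groups did not overlap for 77.9% of genes with ALDH1B1 and 76.7% with EGFP.

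MUC13 was the member farthest from the parental level. The DMSO libraries held 2738 MUC13 reads in all, the clone with ALDH1B1 held 14 and the clone with EGFP held 34. Allowing for depth, MUC13 was 198-fold lower with ALDH1B1 (exact binomial 95% interval 118 to 362) and 78.0-fold lower with EGFP (55.7 to 113). Its log2 fold changes were -7.55 (SE 0.19, edgeR adjusted p = 6.6e-21) and -6.29 (SE 0.16, edgeR adjusted p = 1.4e-20). MUC13 and MUC2 passed the low-count filter for this fit only through their parental reads. Their calls here thus add no support beyond the read numbers. MUC2 had 74 reads with DMSO and 2 in each arm of the clone, ratios of 37.4 (10.0 to 315) and 35.8 (9.57 to 301). In bulk RNA, fewer cells that make a transcript and less of it per cell cannot be told apart.

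MUC1 in both arms of the clone, and MUCL1 in the arm with ALDH1B1, were not called against parental DMSO, while MUCL1 was higher with EGFP. MUCL1 differed from parental DMSO by -0.16 with ALDH1B1 (SE 0.08, edgeR adjusted p = 0.0887) and by 0.54 with EGFP (SE 0.08, edgeR adjusted p = 2.7e-06). The first of these MUCL1 values passed the threshold without the filter on low counts (-0.20, edgeR adjusted p = 0.0456) and on leaving out ALDH1B1 replicate 3 (-0.22, edgeR adjusted p = 0.0466) or EGFP replicate 3 (-0.18, 0.0326). MUC1 differed by -0.06 (SE 0.18, edgeR adjusted p = 0.76) and -0.18 (SE 0.18, edgeR adjusted p = 0.376). TFF3, with 3969 reads over the 6 parental libraries, has no row in the clone's table, where the smallest row total is 2 reads. It ranks 4 by reads among the 3664 genes with a row in the inhibitor table only, and 24 of those genes have at least 1000 reads.

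**Figure D4:**
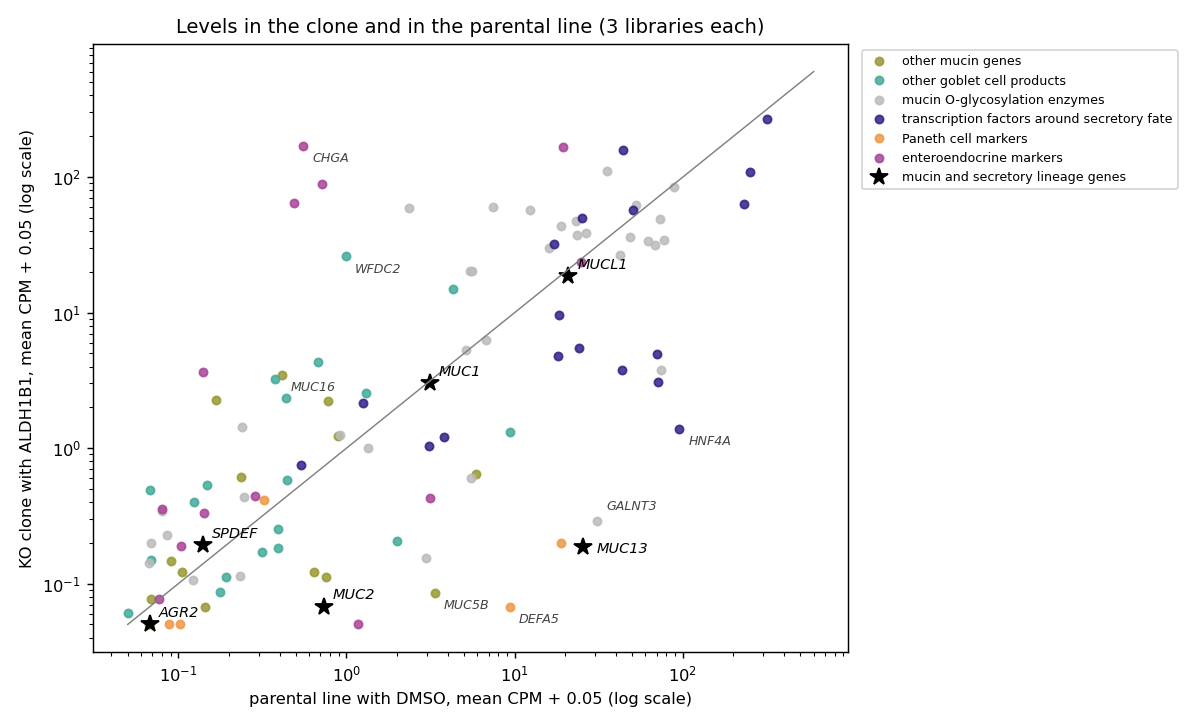
Mean CPM plus 0.05 in the clone with ALDH1B1 against the parental line with DMSO, both on log scales, with 3 libraries each, for 6 members (stars) and 6 gene lists (coloured points), and a line of equal levels. MUCL1 and MUC1 lie near the line, while MUC13, at 25.3 CPM in the parental line and 0.135 CPM in the clone, lies far below it beside GALNT3.

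Other mucin genes went both ways. In the knockout comparison, 1 of 6 tested was called (16.7% beside 17.6% of all genes): MUC16, the large membrane mucin that carries the CA125 antigen, was higher with EGFP (5.46 ± 0.301 against 3.41 ± 0.237 CPM, SD, n = 3 each; log2 fold change 0.68, SE 0.13, edgeR adjusted p = 0.00245). With the inhibitor, none of the 7 tested was called by edgeR or DESeq2, and 0 had an unadjusted edgeR p under 0.05. In the clone with ALDH1B1 against parental DMSO, 4 of 9 were higher and 4 lower, 88.9% beside 75.3% of all genes called there. MUC5B, a gel-forming mucin of the airways, stood at 3.30 CPM with DMSO and 0.0359 CPM in the clone (log2 fold change -6.32), and OVGP1, the oviductal glycoprotein, was also lower (-3.27). MUC12, a membrane mucin of the colon, was higher in the clone (2.20 against 0.117 CPM, log2 fold change 4.16), as was MUC16 (3.25).

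Other products of goblet cells were mostly scarce. CLCA1, AGR3 and ITLN1 have no row in either table, and ZG16 and SPINK4 had at most 4 reads in any library. FCGBP, the IgG Fc-binding protein of mucus, had 31 to 51 reads in the parental libraries and 66 to 107 in those of the clone. TFF2, another trefoil peptide, had 56 to 88 reads in the parental libraries and 0 to 9 in those of the clone. In the knockout comparison 1 of 11 tested rose and 1 fell (18.2% beside 17.6% of all genes). The 1 that rose was SYTL2, a granule-tethering protein (log2 fold change 0.55, edgeR adjusted p = 0.0132). The 1 that fell was the ion transporter SLC26A9 (0.433 to 0.139 CPM, log2 fold change -1.61, edgeR adjusted p = 0.0426), a call at few reads that held without EGFP replicate 1 but was lost without any of the other 5 libraries and in 1 fit over all 12 libraries. The SYTL2 call was lost on leaving out ALDH1B1 replicate 1 or 2. With the inhibitor 1 of 11 was called (9.09% beside 3.99% of all genes), the calpain CAPN8, which fell from 9.44 ± 0.932 to 5.41 ± 1.83 CPM (SD, n = 3 each; log2 fold change -0.80, edgeR adjusted p = 0.0199). The CAPN8 call was lost without DMSO replicate 3, without inhibitor replicate 3 and without the inhibitor library that carries no number. WFDC2, a secreted protease inhibitor, was far higher in the clone (25.9 against 0.946 CPM, log2 fold change 4.77). Against parental DMSO, 9 of 14 tested genes of this list were called higher in the clone with ALDH1B1 and 2 lower. The share called was 78.6% beside 75.3% of all genes. The list summed to 55.14 to 57.12 CPM in that arm and to 20.45 to 21.82 CPM with DMSO.

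Enzymes of mucin O-glycosylation showed no common direction. In the knockout comparison 2 of 29 tested rose and 3 fell, a share of 17.2% beside 17.6% of all genes, with a median log2 fold change of 0.05 beside 0.01 over all genes. ST6GAL1, a sialyltransferase, rose (0.51, SE 0.05, edgeR adjusted p = 2.3e-05), as did C1GALT1, the core 1 synthase (0.23, edgeR adjusted p = 0.0194). GALNT10 and GALNT18, of the family that starts O-glycans, fell (-0.29 and -0.27, edgeR adjusted p = 0.00183 and 0.00414). The fucosyltransferase FUT4 also fell (-0.22, edgeR adjusted p = 0.0356), a call that was lost without any 1 of the ALDH1B1 libraries or EGFP replicate 1. The C1GALT1 call was lost without ALDH1B1 replicate 1 or 2 or EGFP replicate 1. With the inhibitor none of 27 tested was called by edgeR, 7 had an unadjusted edgeR p under 0.05, and DESeq2 called 1, GALNT2. Against the parental line, GALNT3 (31.0 against 0.239 CPM), B3GNT3 (74.0 against 3.70) and GCNT3 (2.94 against 0.104) were lower in the clone with ALDH1B1, and GALNT10 was higher (2.29 against 59.6). The list as a whole had 14 higher and 10 lower of 30 there, 80% beside 75.3% of all genes called.

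Transcription factors around the secretory fate included 6 of 18 that rose in the knockout comparison and none that fell, 33.3% beside 17.6% of all genes called. The median log2 fold change of the list was 0.18 beside 0.01 over all genes. FOXA2, a forkhead factor that takes part in goblet cell differentiation, rose from 5.39 ± 0.159 to 10.4 ± 0.194 CPM (SD, n = 3 each; log2 fold change 0.95, SE 0.10, edgeR adjusted p = 2.3e-05). HNF4A (0.66, edgeR adjusted p = 0.0431), a nuclear receptor of the intestinal epithelium, and the intestinal homeobox factor CDX2 (0.31, edgeR adjusted p = 0.00302) rose too. The other 3 that rose were ID2 (0.22), SOX4 (0.23) and EHF (0.19), with edgeR adjusted p = 0.00228, 0.0246 and 0.037. The call of SOX4 was lost without any library but EGFP replicate 3, and that of EHF without any 1 of the ALDH1B1 libraries or EGFP replicate 3 and in 1 fit over all 12 libraries (edgeR adjusted p = 0.0508). The HNF4A call was lost under DESeq2 (adjusted p = 0.0917) and on leaving out any library other than EGFP replicate 3, with edgeR adjusted p up to 0.178. With the inhibitor 2 of 19 rose (10.5% beside 3.99% of all genes), ID1 (0.30, edgeR adjusted p = 0.00773) and ELF3 (0.26, edgeR adjusted p = 0.0202). The ELF3 call was lost without DMSO replicate 2 or 3, inhibitor replicate 3 or the inhibitor library with no number.

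The same list lay lower in the clone than in the parental line for 12 of 18 genes and higher for 5, with ALDH1B1 expressed in the clone, where 37.4% of all genes were called lower and 38% higher. HNF4A stood at 95.2 ± 2.54 CPM with DMSO and 1.33 ± 0.219 CPM in the clone with ALDH1B1 (SD, n = 3 each; log2 fold change -6.16, SE 0.09). ELF3, an ETS factor of epithelia, stood at 70.5 against 4.86 CPM (-3.87), and FOXA3, a forkhead factor related to FOXA2, at 43.5 against 3.74 CPM (-3.54). The MUC13 start region printed above holds the HNF4 letters. Whether HNF4A has a part in the MUC13 level was not tested.

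Of a list of genes around Notch signalling, not all of them repressors of ATOH1, 3 of 20 tested rose and 2 fell in the knockout comparison. The share called was 25% beside 17.6% of all genes. HEYL (0.49, edgeR adjusted p = 0.00795), HEY2 (0.34, edgeR adjusted p = 0.00759) and the ligand JAG2 (0.33, edgeR adjusted p = 0.00274) were higher with EGFP, and the receptors NOTCH1 (-0.19, edgeR adjusted p = 0.0134) and NOTCH2 (-0.17, edgeR adjusted p = 0.0253) were lower. The NOTCH2 call was lost without ALDH1B1 replicate 2 or 3 or EGFP replicate 1 or 2, and in 1 fit over all 12 libraries (-0.18, edgeR adjusted p = 0.123). The HEY2 call was lost without ALDH1B1 replicate 2, and that of NOTCH1 without ALDH1B1 replicate 1 or 2 or EGFP replicate 1. With the inhibitor 2 of 21 rose and 1 fell, 14.3% beside 3.99% of all genes. The called genes were HES5 (0.44, edgeR adjusted p = 0.0424) and HES6 (0.36, edgeR adjusted p = 0.0175), basic helix-loop-helix factors, and the ligand JAG1 (-0.42, edgeR adjusted p = 0.0144). The HES5 call was lost without any 1 of DMSO replicates 2 and 3 and of the 3 inhibitor libraries. The HES6 call was lost without DMSO replicate 3 or inhibitor replicate 3, and that of JAG1 without inhibitor replicate 3. LFNG, a glycosyltransferase that modifies Notch receptors, stood at 224 CPM with DMSO and 6.94 CPM in the clone with ALDH1B1 (log2 fold change -5.02).

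Summed levels of markers of other intestinal cell types also differed between clone and line, lower in the clone for Paneth cell and absorptive enterocyte markers and higher for enteroendocrine and tuft cell markers, and their part in the results was not tested. Paneth cell markers, 7 of 10 with a row in the inhibitor table, summed to 26.9 to 30.7 CPM with DMSO, 19.3 to 21.8 CPM with the inhibitor and 0.402 to 0.891 CPM in the clone. DEFA5, a Paneth cell defensin, had 312 to 349 reads with DMSO and 0 to 3 in the clone. PRSS2, a trypsinogen, fell with the inhibitor (-0.54, edgeR adjusted p = 0.0049), the 1 called of 3 tested Paneth cell markers (33.3% beside 3.99% of all genes). Enteroendocrine markers summed to 50.5 to 53.3 CPM with DMSO and to between 452 and 526 CPM in the clone. CHGA, chromogranin A, stood at 0.501 CPM with DMSO and 170 ± 11.8 CPM (SD, n = 3) in the clone with ALDH1B1. Against parental DMSO, 6 of 10 tested enteroendocrine markers were called higher in that arm and 2 lower, 80% beside 75.3% of all genes. Of 3 tested Paneth cell markers, 2 were called lower there, 66.7% beside the same 75.3%. None of the tested enteroendocrine markers was called by edgeR in either the knockout (9 tested) or the inhibitor comparison (7 tested). Of all genes, 17.6% and 3.99% were called there. In each comparison 2 of the enteroendocrine markers had an unadjusted edgeR p under 0.05, and DESeq2 called 0.

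DCLK1, a kinase used as a tuft cell marker, carried most of the tuft cell sum in the clone, where the list summed to between 350 and 454 CPM, against 36.7 to 55.5 CPM in the parental line. Against parental DMSO, 2 of 8 tested tuft cell markers were called higher in the clone with ALDH1B1 and 4 lower. The share called was 75% beside 75.3% of all genes. Among the lower ones were SH2D6 (log2 fold change -3.74), PTGS1 (-3.49) and IL17RB (-0.73). DCLK1 fell with EGFP (435 to 344 CPM, log2 fold change -0.34, edgeR adjusted p = 0.00019) and with the inhibitor (17.6 to 8.62 CPM, -1.03, edgeR adjusted p = 0.00113). It was the 1 called marker of 7 and of 5 tested, 14.3% beside 17.6% of all genes and 20% beside 3.99%. Absorptive enterocyte markers summed to between 342 and 362 CPM with DMSO, 400.3 to 408.0 CPM with the inhibitor and 2.59 to 4.05 CPM in the clone. VIL1, villin of the brush border, made up nearly all of that sum in the parental line and stood at 344 CPM there and 0.145 CPM in the clone with ALDH1B1. Of its exon bases 44% are shared with USP37 on the opposite strand. Against parental DMSO, 3 of 5 tested absorptive enterocyte markers were called lower in the clone with ALDH1B1 and 1 higher, 80% beside 75.3% of all genes. In the clone with EGFP 3 were called lower and 2 higher, 100% beside 75.5%. VIL1 was called higher with EGFP from 0.144 to 0.471 CPM (1.72, edgeR adjusted p = 0.0259), a call that was lost without ALDH1B1 replicate 2 or 3 or EGFP replicate 1 or 2. It rose with the inhibitor (0.20, edgeR adjusted p = 0.0202), a call with the inhibitor that was lost without DMSO replicate 2 or 3, inhibitor replicate 3 or the inhibitor library with no number.

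**Figure D5:**
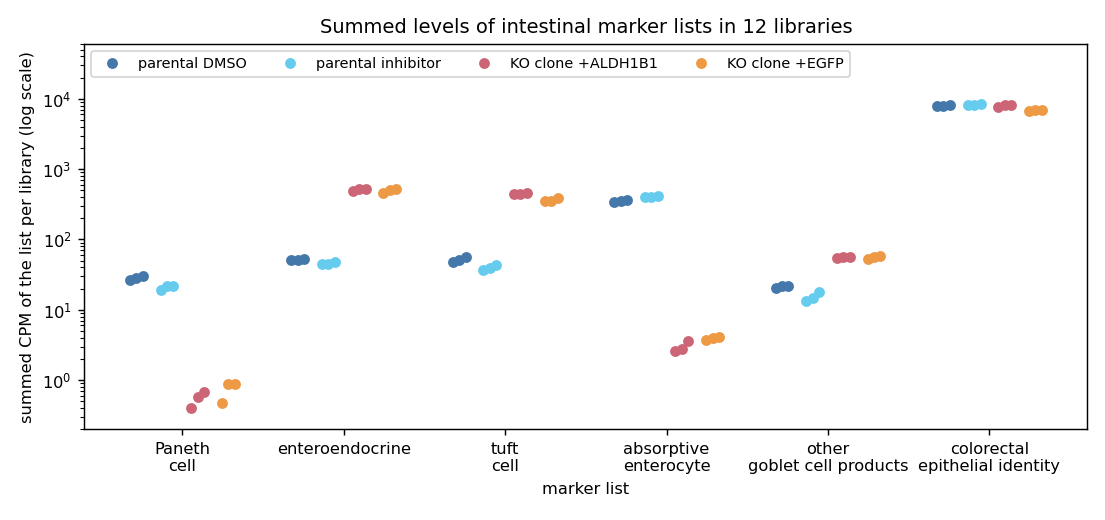
Summed CPM of 6 marker lists in each library, on a log scale, with 1 point for each of the 12 libraries and 1 colour for each group. Clone and parental libraries were scaled separately, and each sum took the list genes with a row in that table. Paneth cell and absorptive enterocyte sums lie far lower in the clone, enteroendocrine and tuft cell sums far higher, and the colorectal epithelial sum between 6714 and 8453 CPM in all libraries.

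With the labelled cell type in view, colorectal epithelial markers summed to 7766 to 8453 CPM in the parental line and 6714 to 8186 CPM in the clone. The keratins KRT8, KRT18 and KRT19, at 4359, 2429 and 865 CPM in the clone with ALDH1B1, made up most of the sum there. The sum thus says little about the other genes of the list and does not by itself check the labelled cell type. EPCAM stood at 767 CPM with DMSO and 135 CPM in the clone with ALDH1B1, CDH1 at 39.0 and 4.89 CPM and CLDN7 at 255 and 30.5 CPM. These epithelial genes were lower in the clone but present, whereas VIL1 was near 0. Of the 10 tested genes of the list, these 4 were called lower in that arm and 5 others higher. The share called was 90% beside 75.3% of all genes. In the clone with EGFP, 6 of the 10 were called lower and 2 higher, 80% beside 75.5% of all genes. The keratins KRT19 (-0.46, edgeR adjusted p = 1.7e-05), KRT8 (-0.23, edgeR adjusted p = 0.00139) and KRT18 (-0.16, edgeR adjusted p = 0.038) fell in the knockout comparison, and the KRT18 call was lost without ALDH1B1 replicate 1 or 2 or EGFP replicate 1 or 2. Of the 9 tested genes of the list, CDX2 and VIL1 rose there and the 3 keratins fell, 55.6% beside 17.6% of all genes. Blood and endothelial markers summed to at most 3.16 CPM in any library. Fibroblast markers summed to 11.6 to 13.9 CPM in the parental line and 21.1 to 28.1 CPM in the clone. Among these PDGFRB, a growth factor receptor, rose with EGFP (0.93, edgeR adjusted p = 0.000117), as did the collagen COL1A2 at low reads (0.229 to 0.575 CPM, edgeR adjusted p = 0.0407), a call that was lost without any library but EGFP replicate 3, without the low-count filter and in 1 fit over all 12 libraries.

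The genes most like MUCL1 and MUC2 across the 12 libraries were found among 11453 and 11454 genes with at least 5 CPM on average, as the smallest root mean square difference of log2 CPM after each gene was centred on its own mean. For MUCL1 these were RAB30 (0.158), ALOX12B (0.16) and MT-CYB (0.161), against a spread of MUCL1 around its own mean of 0.326. RAB30 stood at 12.3 CPM in the clone with ALDH1B1, 22.0 with EGFP, 12.8 with DMSO and 12.5 with the inhibitor, so its level with the inhibitor was close to that with DMSO, unlike that of MUCL1. In ALOX12B 26.8% of exon bases are shared with AC129492.1 on the opposite strand. For MUC2 they were CST7 (0.462), ISLR (0.493) and SDR16C5 (0.495), against a spread of 1.45. CST7, a cystatin, stood at 144 CPM with DMSO, 101 with the inhibitor, 15.6 in the clone with ALDH1B1 and 19.1 with EGFP. The likeness of the MUC2 genes rests mainly on the distance between line and clone, where most genes differed. Log2 CPM was computed with a prior count of 2, which narrows differences at low reads. It narrowed that distance for MUC2, which had 0 to 2 reads in each library of the clone.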

How the data were processed

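Polyadenylated RNA was captured on oligo(dT) beads and prepared with an NEBNext Ultra II kit, per the labels' protocols. Reads were processed with fastp, STAR and DESeq2 on hg38, per the submitters' processing notes (version, counter, strand setting and annotation: not given in the sources used here). Both deposited tables hold whole-number read counts for each gene and library, per the file headers, and each listed gene has at least 2 reads. The FPKM values deposited by the authors served only to order genes within a group. The authors' deposited log2 fold changes, p-values and adjusted p-values were set beside the tests made here. Of the per-sample columns 13 were not used, namely 12 normalized ones and the FPKM column of inhibitor replicate 2, which could not be tied to a count column. A count column of the inhibitor group has no replicate number and was taken as a replicate without one.

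Tests of the counts used edgeR 4.0.16 under R 4.3.3 (TMM scaling, filterByExpr, glmQLFit, glmQLFTest, Benjamini-Hochberg adjustment over all genes tested, threshold 0.05). Knockout changes are coded EGFP minus ALDH1B1 and inhibitor changes inhibitor minus DMSO, each fitted on its own 6 libraries. Their difference, and clone against parental line, were tested on all 12 libraries from raw counts of genes in both tables. Standard errors came from the F statistic and intervals from its total degrees of freedom, residual and prior ones together. CPM used TMM-scaled library sizes. In simulated counts the tests recovered 82%, 78% and 67% of genes changed 1.5-fold in the knockout, inhibitor and difference tests (17147, 17577 and 18544 genes). Unchanged genes made up 9 of the 189 detections in the knockout simulation, 13 of 184 with the inhibitor and 6 of 162 for the difference. The changed genes were drawn only from genes above 1 CPM on average, and recovery was not split further by read level. Whether these shares hold for genes as scarce as MUC2, or MUC13 in the clone, was not tested. The same applies to genes with levels far apart between clone and line.

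The 8 members and 12 further gene lists were chosen with earlier results of these data known. Some genes of these lists are not reported here and were left out of the counts and sums of their lists. Of each list up to 4 called genes with at least 1 CPM and the largest change are named for each comparison, for the comparisons with the parental line only some of them. SLC26A9, FUT4, NOTCH2, EHF, ID2, COL1A2 and VIL1 in the knockout comparison, and scarce genes of the goblet cell list, were named with their values in view. The alternatives were size factors by relative log expression, no low-count filter, DESeq2 1.42.0, a replicate block, 1 fit over 12 libraries and leaving out each library. Promoter sequences came from RefSeq (GRCh38.p14), where 7 of 8 members matched. No protein sequence was used here.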

Additional observations from a re-analysis of the deposited data

Results flagged for a closer look

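The following genes were singled out because the knockout effect (EGFP minus ALDH1B1) and the inhibitor effect (inhibitor minus DMSO) differed by edgeR's interaction test over 12 libraries, with 5.11% of 19075 genes called by the same test. Values are the knockout effect minus the inhibitor effect on the log2 scale. Among the members it was MUCL1 alone of 4 tested, with a difference of 0.99.

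Among the O-glycosylation enzymes the differences were 0.51 for ST6GAL1, -0.47 for GALNT18 and -0.27 for GALNT2. GALNT2 was called in neither comparison by itself (-0.07, edgeR adjusted p = 0.393, and 0.18, edgeR adjusted p = 0.0578). Among the transcription factors they were 0.85 for FOXA2, 0.58 for HNF4A and 0.34 for ID2, and in the Notch branch 0.58 for JAG1 and -0.31 for NOTCH1. DCLK1, which fell in both comparisons, had a difference of 0.66.

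Among the epithelial genes the differences were 1.50 for VIL1, whose reads in the clone were few, -0.62 for KRT19, 0.42 for CDH1 and -0.35 for KRT8. Of 16 alternatives, the call of the difference was lost in 12 for GALNT2, 11 for CDH1, 7 for ST6GAL1, 6 each for HNF4A and ID2, 5 for NOTCH1 and 1 for VIL1. VIL1 lost it without ALDH1B1 replicate 2 (1.08, edgeR adjusted p = 0.134). The cause of these differences was not tested.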

How the results depend on the processing

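Over the alternatives, 244 of 266 values for the members and 1631 of 1757 for the other named genes kept their direction and their side of the threshold; 11 and 126 lost the call, 3 and 0 gained it, and 8 and 0 changed sign. All 8 sign changes concern MUC1, which was not called in any of them. Its log2 fold change ranged from -0.243 to 0.0875 over single libraries left out in the knockout comparison, from -0.107 to 0.224 for the difference and from -0.259 to 0.0732 in the clone with ALDH1B1 against parental DMSO, and it was -0.0093 for the difference with a replicate block.

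Leaving out single libraries gave 1371 to 3951 genes called in the knockout comparison (3059 with all), 171 to 832 in the inhibitor comparison (712 with all) and 392 to 1003 for the difference (974 with all). The lowest counts came without ALDH1B1 replicate 2, DMSO replicate 3 and ALDH1B1 replicate 1, in that order. Without the filter on low counts 1402 genes were called with the inhibitor. Members called with the inhibitor were 2, but 1 under DESeq2, where MUC2 had no adjusted p, 1 with a replicate block, and 0 to 1 with a library left out. In the knockout comparison 1 fit over all 12 libraries called 2 members, MUC13 being added, which passed the low-count filter there only through its parental reads. Same-numbered libraries did not deviate together (correlations of deviations between -0.0508 and 0.0106), so the numbers were not taken to pair samples; with the replicate block 3563 genes were called in the knockout comparison and 549 in the inhibitor comparison, where replicates 1 and 3 alone could be used. Under this block the inhibitor calls of MUC2 (-1.63, edgeR adjusted p = 0.09), ELF3 (0.20, edgeR adjusted p = 0.146), HES5 (0.31, edgeR adjusted p = 0.355) and VIL1 (0.18, edgeR adjusted p = 0.162), the knockout call of SLC26A9 and the differences of GALNT2, HNF4A and CDH1 were not made, and the calls of the other named genes were. The causes were not tested. Depth limits AGR2, SPDEF and, in the clone, MUC2, whose libraries held a few reads at most.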
